A study of Mus musculus with 2 samples.

Results

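Immediate early transcription factors were read as 10 genes (Fos, Fosb, Jun, Junb, Jund, Egr1, Atf3, Ier2, Nr4a1 and Btg2) out of 32285 annotated genes in 2 single-cell RNA sequencing libraries of mouse skin melanocytes. Both libraries came from Dct-rtTA; tetO-H2B-GFP mice, in which doxycycline switches on a nuclear GFP in cells that use the Dct promoter, and GFP+ live cells were sorted. The early-anagen library (labelled Activated McSC) held melanocyte stem cells (McSCs) from back skin 4 days after depilation of mice aged 8 weeks, when follicles are at anagen II. The bulb library (labelled Differentiated Mc) held melanocytes from microdissected bulbs of anagen VI follicles in back skin of mice aged 5 weeks, without depilation. Cells of 4 mice were pooled in each library, so each condition was 1 sample, no test between conditions was possible, and all intervals below are 95% intervals that cover counting error only. The kit (v3 in early anagen, v2 in the bulb), the age of the mice, the tissue dissociated and the enzymes changed together with the condition. Trypsin was used on whole skin in early anagen, and EDTA followed by collagenase and dispase on bulbs. The parts of these in a difference cannot be told apart.

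The genes were read in cells with at least 1 Dct UMI (a UMI is a counted RNA molecule), fewer than 3 Krt10 and Krt14 UMIs, under 5% mitochondrial UMIs and more than 10000 UMIs in early anagen or 5000 in the bulb. These rules kept 2785 of 11010 barcodes in early anagen and 3734 of 4327 in the bulb, and 1 barcode sequence occurred in both libraries. The kept cells held a median of 24528 UMIs and 4684 genes in early anagen, and 14287 UMIs and 3407 genes in the bulb. The 8 melanocyte markers summed to 24639 CPM (UMIs of a gene scaled to a common library total) in early anagen and 67431 CPM in the bulb. Of these, 6 were higher in the bulb beyond counting error and 2 lower (Kit at 486 and 108 CPM, Mitf at 446 and 330 CPM). The 8 keratinocyte markers summed to 45.8 and 34.1 CPM, of which 5 were lower in the bulb beyond counting error (Krt15, Krt1 and Krtdap at 0 UMIs there) and 2 higher (Sfn at 5.07 and 13.9 CPM, Krt10 at 13.1 and 16.2 CPM), and Perp stood at 3.66 and 3.72 CPM. The 6 immune markers summed to 16.0 and 0.626 CPM, of which Cd74 made 14.2 and 0.41 CPM, the 6 fibroblast markers to 1.32 and 0.823 CPM and the 4 endothelial markers to 0.211 and 0.0358 CPM.

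Immediate early genes are transcribed within minutes of a stimulus, from transcription factors that are already present in the cell, and their mRNAs are short-lived. Growth factor and stress signals reach them through the MAP kinases, which activate serum response factor with its Elk partners and the cAMP response element binding proteins. FOS and JUN family proteins pair through leucine zippers to form AP-1, ATF3 belongs to the same zipper class, EGR1 is a zinc finger factor and NR4A1 an orphan nuclear receptor. IER2 is a nuclear protein and BTG2 an antiproliferative adaptor of the mRNA deadenylation machinery, so these last members are not classical DNA-binding factors. In melanocytes the pathway lies downstream of KIT, and the dissociation of tissue is itself a known stimulus of these genes.

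In the mouse genome (build GRCm38) the AP-1 members lay at chr12:85473890-85477273 (Fos, + strand), chr7:19302696-19310051 (Fosb, - strand), chr4:95049034-95052222 (Jun, - strand), chr8:84974484-84978718 (Junb, - strand) and chr8:70698949-70700616 (Jund, + strand). Of the others, 4 lay at chr1:191170296-191218039 (Atf3, - strand), chr8:84661331-84662852 (Ier2, - strand), chr15:101254269-101274795 (Nr4a1, + strand) and chr1:134075170-134079120 (Btg2, - strand). Jun, Junb, Jund and Ier2 consist of 1 exon, which is unusual among protein-coding genes and shared by members of different families.

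RefSeq promoter sequences matched 8 of the 10 members, Egr1 and Ier2 having no entry used here. A window of 240 bases that ends just before the transcription start was searched on both strands, and in these 8 genes it overlapped no annotated exon. The start used for Jund lay 1210 bases upstream of the annotated gene start, and those for Atf3 and Nr4a1 lay inside the gene. Which start these cells use was not tested. The short cAMP response element TGACG occurred in 5 of the 8 (Fos, Fosb, Junb, Nr4a1 and Btg2), against 16.9% of 32817 mouse promoter windows of the same length, and the full element TGACGTCA, which contains it, occurred in Btg2 alone, against 1.44%. TATAAA occurred in Fos (12.1% of all windows), and neither the AP-1 site TGANTCA (6.59% of all windows) nor the CArG box of serum response factor (1.44%) was found in these 8 windows. At such shares an absence from 8 windows says little. Sequence further upstream, and the promoters of Egr1 and Ier2, were not searched. The 5 windows with the short element are shown 5′ to 3′ in gene orientation, to let their elements be compared. Capitals mark TGACG, its reverse complement CGTCA in Nr4a1, TGACGTCA in Btg2 and TATAAA in Fos. They cover chr12:85473640-85473879 (Fos, + strand), chr7:19310056-19310295 (Fosb, - strand), chr8:84978759-84978998 (Junb, - strand), chr15:101266596-101266835 (Nr4a1, + strand, at a start inside the annotated gene) and chr1:134079166-134079405 (Btg2, - strand).
Fos: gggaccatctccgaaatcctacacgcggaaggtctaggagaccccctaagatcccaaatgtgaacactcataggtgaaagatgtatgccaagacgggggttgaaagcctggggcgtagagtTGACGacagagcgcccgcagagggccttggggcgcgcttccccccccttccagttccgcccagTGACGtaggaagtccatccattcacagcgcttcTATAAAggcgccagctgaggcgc
Fosb: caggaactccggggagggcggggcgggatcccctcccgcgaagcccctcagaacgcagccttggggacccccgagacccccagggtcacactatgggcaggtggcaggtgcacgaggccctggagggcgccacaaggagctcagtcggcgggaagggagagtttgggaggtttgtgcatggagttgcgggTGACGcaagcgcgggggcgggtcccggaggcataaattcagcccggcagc
Junb: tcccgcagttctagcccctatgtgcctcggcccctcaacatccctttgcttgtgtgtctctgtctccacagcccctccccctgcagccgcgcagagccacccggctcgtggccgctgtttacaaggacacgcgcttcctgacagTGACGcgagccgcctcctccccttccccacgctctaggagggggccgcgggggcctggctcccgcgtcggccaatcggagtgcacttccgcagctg
Nr4a1: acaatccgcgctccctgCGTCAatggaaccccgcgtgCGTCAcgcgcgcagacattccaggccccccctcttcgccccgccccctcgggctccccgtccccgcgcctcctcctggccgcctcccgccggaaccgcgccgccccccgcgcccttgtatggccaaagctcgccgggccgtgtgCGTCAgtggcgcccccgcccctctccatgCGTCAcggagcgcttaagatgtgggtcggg
Btg2: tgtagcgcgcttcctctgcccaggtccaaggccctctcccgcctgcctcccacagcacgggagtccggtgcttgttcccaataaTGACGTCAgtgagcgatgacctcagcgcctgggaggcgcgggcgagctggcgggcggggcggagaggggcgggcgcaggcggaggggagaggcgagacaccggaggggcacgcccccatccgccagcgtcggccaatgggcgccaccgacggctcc
In Fos the elements began 129 and 66 bases before the start and TATAAA 33 bases before it, whereas in Nr4a1 the 4 elements began 233, 213, 69 and 40 bases before it. A match of letters is a description of the window and not evidence of a bound factor.

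Which of the 10 genes differed between early-anagen McSCs and bulb melanocytes was first read from the UMIs summed over cells. Atf3, a stress-responsive AP-1 relative, was 10.0-fold lower in the bulb, Egr1 6.14-fold lower, Nr4a1 3.50-fold lower, Fosb 3.17-fold lower and Jund 2.93-fold lower. Fos and Junb were 1.71-fold and 1.41-fold higher in the bulb in this sum. The members therefore did not differ as a block, and the AP-1 members themselves lay on both sides of equality.

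Among the AP-1 members, Fos stood at 374 CPM (369 to 378) in early anagen and at 639.5 CPM (633 to 646) in the bulb, a log2 ratio (bulb to early anagen) of 0.78 (0.75 to 0.80). Its close relative Fosb stood at 109 CPM (107 to 112) and 34.5 CPM (33.0 to 36.1), a log2 ratio of -1.66 (-1.74 to -1.59). The 2 FOS family genes thus lay in opposite directions over all cells, but in cells of 10000 to 15000 UMIs the interval of Fos included 0 (a log2 ratio of -0.03, -0.08 to 0.02). Jun stood at 718 and 479 CPM, a log2 ratio of -0.58 (-0.61 to -0.56), Junb at 244 and 343 CPM, a log2 ratio of 0.49 (0.46 to 0.52), and Jund at 746 and 255 CPM, a log2 ratio of -1.55 (-1.58 to -1.52). Jund, the JUN member that is usually present without a stimulus, had the lowest log2 ratio of the 3 JUN genes. Atf3 stood at 244 CPM (241 to 248) and 24.4 CPM (23.1 to 25.8), a log2 ratio of -3.32 (-3.40 to -3.24).

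Of the other members, Egr1 (chr18:34859823-34864984, + strand) stood at 36.6 CPM (35.3 to 38.0) in early anagen and 5.96 CPM (5.34 to 6.63) in the bulb, a log2 ratio of -2.62 (-2.79 to -2.45). Nr4a1 stood at 54.9 and 15.7 CPM, a log2 ratio of -1.81 (-1.91 to -1.70), and Btg2 at 28.0 and 16.1 CPM, a log2 ratio of -0.79 (-0.91 to -0.68). Ier2 was the member with the least distance between libraries, at 50.8 and 56.2 CPM, a log2 ratio of 0.15 (0.08 to 0.21). Summed over the 10 genes, the level was 2605 CPM in early anagen and 1869 CPM in the bulb.

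The median log2 ratio of the 10 genes was -1.17, against -0.42 over the 15502 genes with a UMI in both libraries, which left -0.75 relative to the median gene. Over the genes of at least 10 CPM in either library, a level that all 10 members reached, the median was -0.18. Beyond counting error (an interval of the ratio that leaves out 0), 7 of 10 were lower in the bulb and 3 were higher, where 52.8% and 42.4% of the 8020 genes of at least 10 CPM in either library did the same. Past 2-fold, 5 of 10 were lower and 0 were higher, against 28.7% and 16.3% of those genes. At these sums counting error is small, so a share beyond it says little about the members.

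**Figure D1:**
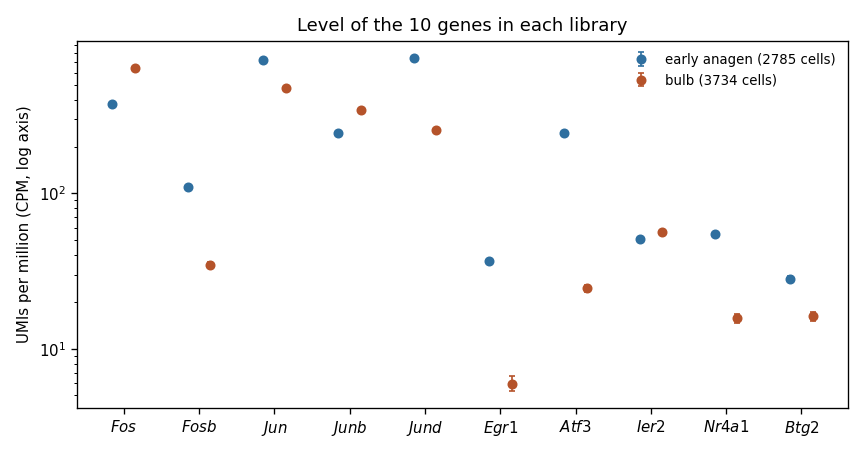
Level of each of the 10 genes in CPM (log axis) in 2785 early-anagen cells and 3734 bulb cells, 1 pooled library each, with bars for the 95% counting interval, mostly smaller than the points. The early-anagen point lies above the bulb point for 7 genes, by the widest distance for Atf3 (244 against 24.4 CPM), and below it for Fos, Junb and Ier2.

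The direction of Fos, Junb and Ier2 depended on which cells were compared. In cells with 10000 to 15000 UMIs in both libraries (455 in early anagen and 1657 in the bulb, a range chosen after seeing the data), Fos stood at 723 and 708 CPM, a log2 ratio of -0.03 (-0.08 to 0.02). Junb stood there at 414 and 399 CPM, a log2 ratio of -0.06 (-0.12 to 0.01), and Ier2 at 81.1 and 66.5 CPM, a log2 ratio of -0.28 (-0.44 to -0.13). At that range 8 of 10 members were lower in the bulb beyond counting error and 0 higher, where 45.6% and 41% of 7990 genes of at least 10 CPM were, and the median log2 ratio was -1.76 against -0.37 over all genes with a UMI in both. In cells with 15000 to 20000 UMIs, Fos stood at 514 and 596 CPM, a log2 ratio of 0.21 (0.16 to 0.26), and lay above its early-anagen level again. Equal UMIs are not equal RNA, since the kits may differ in capture, so neither comparison is free of the chemistry. The 455 early-anagen cells were also those with the fewest UMIs of their library, whose median was 24528 UMIs. There the members' share was highest, at 4657 CPM against 2037 CPM in cells of more than 40000 UMIs, each thinned to 10000. The bulb median, 14287 UMIs, lay inside the first range, so unlike parts of the 2 libraries were compared. The 7 members that were lower in the bulb over all cells were lower at both ranges, Atf3 with a log2 ratio of -4.07 at 10000 to 15000 UMIs.

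Other genes of the response were compared in the same way. Of 26 further immediate early genes, 21 were lower in the bulb beyond counting error and 4 higher. Of the 8020 genes of at least 10 CPM, 52.8% were lower and 42.4% higher. The median log2 ratio was -1.28 over the 25 with a UMI in both libraries. Among the 23 of at least 10 CPM in either library, 12 were past 2-fold lower and 1 past 2-fold higher, against 28.7% and 16.3% of the 8020 genes. Ccn2, a secreted matrix protein, differed most, with 1116 UMIs (14.7 CPM) in early anagen and 0 in the bulb, at least 275-fold lower against a floor of 3 UMIs. Gadd45b, a stress-inducible growth arrest gene, stood at 157 and 8.79 CPM, Sgk1, a serum-inducible kinase, at 25.9 and 2.40 CPM, Ier5 at 74.9 and 7.78 CPM, and the nuclear receptor Nr4a2 at 13.8 and 1.75 CPM. Dusp1, a phosphatase that switches MAP kinases off, was the 1 past 2-fold higher, at 42.2 CPM in early anagen and 259 CPM in the bulb. Below 10 CPM, Egr2 was also higher, at 1.18 and 3.24 CPM, and Egr3, at 1.90 and 0.573 CPM, and Fosl1, at 0.726 and 0.0358 CPM, were lower.

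Of 18 upstream regulators (serum response factor and its partners, cAMP response element factors and MAP kinases), 11 were lower and 7 higher beyond counting error. Of the 8020 genes of at least 10 CPM, 52.8% were lower and 42.4% higher, so these counts say little about the regulators. Their median log2 ratio was -0.39, against -0.42 over the 15502 genes with a UMI in both libraries and -0.18 over those of at least 10 CPM in either. Rps6ka3, a kinase downstream of ERK, stood at 95.2 and 15.3 CPM, Srf at 16.6 and 4.83 CPM, Creb1 at 38.3 and 13.5 CPM and Elk4 at 20.2 and 7.95 CPM, whereas Map2k1, the kinase that activates ERK, stood at 38.7 and 90.2 CPM. Of 11 bZIP partners of AP-1, 9 were lower and 0 higher, against those same shares of genes, with a median log2 ratio of -1.27. Cebpb stood at 48.6 and 1.13 CPM, Jdp2, a partner that represses AP-1 targets, at 16.6 and 0.752 CPM, Atf4 at 186 and 77.3 CPM, Atf2 at 36.9 and 13.1 CPM and Atf7 at 25.9 and 12.8 CPM. All 5 corepressor and mRNA decay genes were lower, against 52.8% of the 8020 genes, with a median log2 ratio of -1.13. Among them were Zfp36l1, which promotes decay of AU-rich mRNAs, at 235 and 62.0 CPM, and Zfp36l2 at 72.3 and 11.9 CPM. Nab1 at 38.9 and 17.8 CPM, Nab2 at 18.0 and 10.0 CPM and Elavl1 at 130 and 120 CPM were lower by less.

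Heat shock genes moved with this difference and are given beside it, and their part in it was not tested. All 11 were lower in the bulb beyond counting error, where 52.8% of the 8020 genes of at least 10 CPM were, with a median log2 ratio of -1.21. The inducible Hspa1a stood at 351 and 5.06 CPM and Hspb1 at 80.5 and 6.25 CPM, and the largely constitutive Hsp90ab1 at 3222 and 669 CPM and Hspd1 at 599 and 202 CPM. Hspa1b stood at 257 CPM in early anagen, with 7 UMIs in all bulb cells (0.125 CPM). The part of the dissociation in the levels of the 10 members was not tested and cannot be told apart from the condition.

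Within each library the share of UMIs from the members was larger in cells with fewer UMIs. After every early-anagen cell was thinned to 10000 UMIs, so that depth was equal, the summed level was 4657 CPM in the 455 cells that had held 10000 to 15000 UMIs. It was 3465 CPM in 476 cells of 15000 to 20000 UMIs, 2697 CPM in 881 cells of 20000 to 30000, 2217 CPM in 555 cells of 30000 to 40000 and 2037 CPM in 418 cells of more than 40000. The order was the same in the bulb, at 5000 UMIs per cell, with 2634 CPM in 447 cells of 5000 to 10000 UMIs and 2078 CPM in 1657 cells of 10000 to 15000. It was 1723 CPM in 1128 cells of 15000 to 20000 and 1520 CPM in 502 cells of more than 20000. Counted before thinning, the members' UMIs per cell still increased, from 58.1 to 102 in early anagen while the median total increased 3.83-fold, and from 21.2 to 35.7 in the bulb while the median total increased 2.66-fold.

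Each member took part in early anagen. Between the cells with the fewest and the most UMIs, all 10 were higher in the former beyond counting error and 0 lower, where 25.4% and 30.3% of 7947 genes were, and 9 of 10 were past 1.5-fold higher and 0 past 1.5-fold lower, where 13.7% and 17% of genes were. Counting intervals leave out the spread between cells, which was above that of the median gene for every member. Counts beyond counting error are therefore not on equal terms for members and other genes. The median log2 ratio of fewest over most was 1.25, and -0.02 over all genes. Btg2 stood at 60.9 CPM in the cells with the fewest UMIs and 18.9 CPM in those with the most, a log2 ratio of 1.69 (1.32 to 2.07), and Egr1 at 84.0 and 28.5 CPM, a log2 ratio of 1.56 (1.26 to 1.87). Atf3 stood at 480 and 174 CPM, a log2 ratio of 1.47 (1.34 to 1.59), and Fos at 729.7 and 312 CPM, a log2 ratio of 1.23 (1.13 to 1.32). Nr4a1 had the flattest profile, at 67.9 and 47.1 CPM, a log2 ratio of 0.53 (0.26 to 0.79). The remaining 5 members had log2 ratios between those of Nr4a1 and Egr1.

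In the bulb, 9 members were higher in the cells with the fewest UMIs beyond counting error and 0 lower, where 17% and 7.84% of 6981 genes were. The larger spread of the members between cells limits this comparison too. All 9 of them were past 1.5-fold higher and 0 past 1.5-fold lower, where 12.6% and 2.75% of genes were, and the median log2 ratio was 0.83 against 0.12 over all genes. Atf3 had the highest ratio, at 50.6 and 14.3 CPM, a log2 ratio of 1.82 (1.27 to 2.40), and Egr1, with few UMIs in this library, stood at 4.03 and 4.78 CPM, a log2 ratio of -0.25 (-1.67 to 1.12).

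Markers of keratinocytes moved with this difference in the bulb, from 62.6 CPM in the cells with the fewest UMIs to 18.7 CPM in those with the most, and stood at 69.5 and 26.6 CPM in early anagen. In cells with at least 20 Dct UMIs and no Krt10 or Krt14 UMI, a choice made after seeing the data, they stood at 3.16 and 8.43 CPM in the bulb. The members of these cells summed to 2712 and 1556 CPM, with a median log2 ratio of 0.78. Krt10 and Krt14 are themselves among the keratinocyte markers, so the choice of cells lowered the marker sum in part by itself. The part of keratinocyte RNA in the members' levels was not tested. The same cells of early anagen gave 20.2 and 17.0 CPM of keratinocyte markers, 4515 and 2152 CPM of members and a median log2 ratio of 1.09. Among non-cycling early-anagen cells alone the median log2 ratio was 1.35. The sum of the 26 other immediate early genes shared the pattern, at 3240 and 1717 CPM in early anagen and 1817 and 1235 CPM in the bulb. The sum of the heat shock list did not, at 8830 and 9142 CPM and at 3727 and 3864 CPM. Over all early-anagen cells Hsp90ab1 alone stood at 3222 CPM, against 351 CPM for Hspa1a and 257 CPM for Hspa1b. The heat shock sum therefore says little about these inducible genes. The median mitochondrial share was 3.20% and 2.73% in early anagen and 2.84% and 2.73% in the bulb, and its part was not tested.

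**Figure D2:**
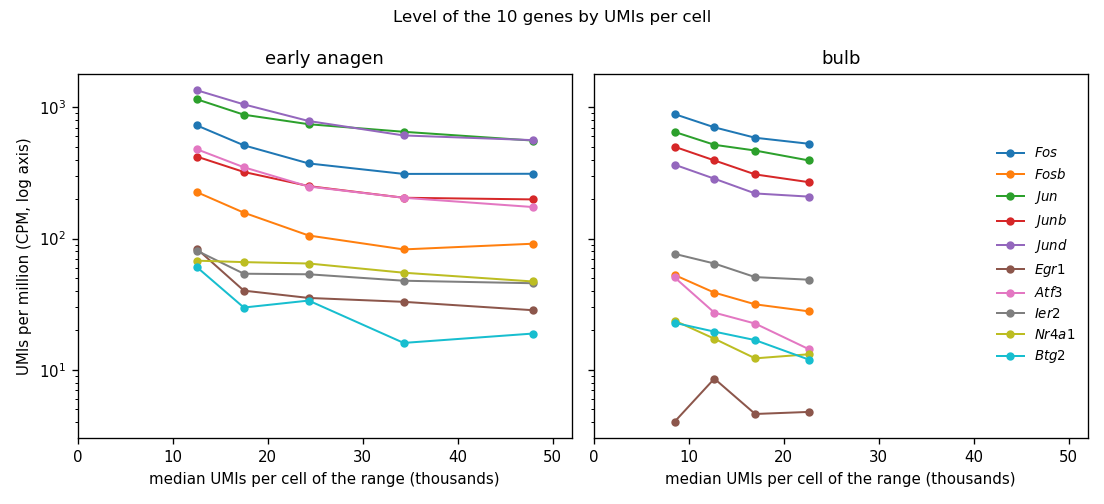
Level of each of the 10 genes (CPM, log axis, cells thinned to 10000 UMIs in early anagen and 5000 in the bulb) against the median number of UMIs that the cells of each range held before thinning. All 10 lines end lower than they start in early anagen, from a sum of 4657 to 2037 CPM, and 9 of 10 do in the bulb, Egr1 being the exception.

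How many cells held each transcript was compared at 5000 UMIs per cell in both libraries, with the share at all UMIs in brackets. Jund had a UMI in 91.8% (99.8%) of cells in early anagen and 62.4% (87.4%) in the bulb, and Jun in 79.4% (96.2%) and 65.7% (82.7%). Junb had a UMI in 61.0% (91.8%) and 68.3% (88.7%), and Fos in 57.8% (86.5%) and 72.2% (86.3%). These 4 genes were thus found in most cells of both libraries. Atf3 was found in 52.5% (81.8%) and 7.98% (15.2%), and Fosb in 35.9% (70.2%) and 14.8% (32.0%). Nr4a1 was found in 22.3% (59.7%) and 6.67% (16.3%), Ier2 in 20.8% (58.5%) and 21.7% (44.5%), Egr1 in 13.0% (31.0%) and 2.62% (5.87%) and Btg2 in 10.7% (31.6%) and 7.34% (15.9%). The counting intervals of the 2 libraries at 5000 UMIs overlapped for Ier2 and for no other member. The same count was not made over all genes, and with intervals this narrow it says little about the members.

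No cell type that lacks these genes was present to set the level of free RNA. The nearest were 63 early-anagen and 42 bulb barcodes with at most 5 Dct UMIs, nearly all with the keratinocyte gene Sfn (60 and 41 barcodes), of a median 30612 and 11028 UMIs, and keratinocytes use these genes themselves. At 5000 UMIs, Egr1 had a UMI in 41.3% and 14.3% of them, Btg2 in 52.4% and 14.3%, Atf3 in 69.8% and 11.9%, Fosb in 52.4% and 14.3% and Nr4a1 in 36.5% and 4.76%. In the bulb the share of Egr1 in melanocytes was below the interval of the low-Dct barcodes (5.43% to 28.5%). Those of Btg2 (5.43% to 28.5%), Atf3 (3.98% to 25.6%), Fosb (5.43% to 28.5%) and Nr4a1 (0.582% to 16.2%) lay within these intervals. In early anagen the melanocyte shares of Egr1, Btg2, Atf3, Fosb and Nr4a1 were all below the intervals of the low-Dct barcodes. Because keratinocytes use these genes, such barcodes cannot set the level of free RNA. The part of free RNA in the melanocyte shares was not tested in either library. Jund, Junb and Ier2 had a UMI in 83.3%, 88.1% and 76.2% of the low-Dct bulb barcodes, also above the melanocytes, so a lower share is no sign of absence. Of the kept bulb cells, 19 (0.509%) were among these low-Dct barcodes.

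At 5000 UMIs the median early-anagen cell held 4 of the 10 transcripts and the median bulb cell 3. At least 5 were held by 47.9% of cells in early anagen (46.0% to 49.8%) and 22.1% in the bulb (20.8% to 23.5%), and at all UMIs by 93.4% and 56.1%. None was held by 14 early-anagen cells (0.503%) and 121 bulb cells (3.24%), and all 10 by 5 early-anagen cells and 0 of 3734 bulb cells, which allows a share of up to 0.0987% by the exact interval. The number per cell was more spread than if the genes were independent, with a variance 1.77 times that expected from the single shares in early anagen and 1.82 times in the bulb. This was not compared with other sets of genes.

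**Figure D3:**
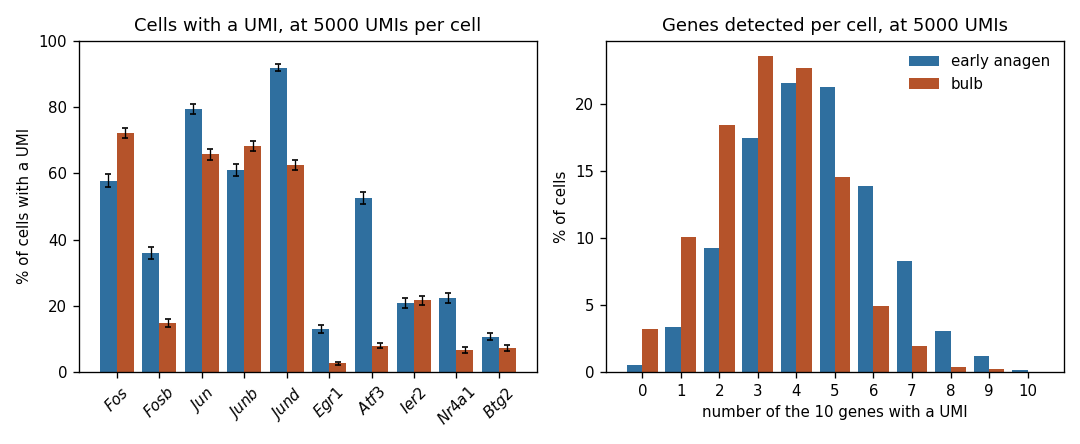
Left, percentage of cells with at least 1 UMI of each gene after thinning to 5000 UMIs per cell, with 95% Clopper-Pearson counting intervals. Right, percentage of cells by the number of the 10 genes detected, where the early-anagen cells peak at 4 and the bulb cells at 3.

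Spread between cells was above that of the median gene for every member, by much for some and by little for others. The Fano factor (variance over mean of the UMIs per cell, 1 for pure counting) at 5000 UMIs was 7.93 for Jun, 6.19 for Fos, 4.32 for Atf3 and 3.09 for Jund in early anagen, against a median of 1.05 over 7309 genes. In the bulb it was 5.95 for Fos, 5.54 for Jun, 2.73 for Junb and 2.70 for Atf3, against a median of 1.03 over 6443 genes. In the bulb it was under 2 for Jund (1.95), Ier2 (1.82), Nr4a1 (1.44), Btg2 (1.44), Egr1 (1.39) and Fosb (1.33), and in early anagen for Ier2 (1.69) and Nr4a1 (1.44). Only 2.34% and 1.43% of genes exceeded 2, and the lowest-placed member reached percentile 94.4 of genes in early anagen (Nr4a1) and 95.2 in the bulb (Fosb). The genes compared had a UMI in at least 5% of cells, which Egr1 in the bulb (2.62%) did not, and were not matched for level. In single cells before thinning, Jun reached 270 UMIs in early anagen around a median of 12, and Fos 233 UMIs in the bulb around a median of 6.

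The members were found together more often than their single shares give. At 5000 UMIs, 44 of the 45 pairs in early anagen and 45 of 45 in the bulb were co-detected in more cells than the product of their shares, by a median ratio of 1.13 and 1.23. Pairs of other genes were not counted in this way, so these values cannot be read as particular to the members. Jun with Nr4a1 in early anagen was the exception, at 0.979 (483 cells). The largest ratio belonged to Egr1 with Btg2 in both libraries, 2.06 (80 cells) in early anagen and 2.78 (20 cells) in the bulb. In early anagen 22.2% of cells with Egr1 held Btg2, compared with 9.03% of cells without Egr1. Atf3 with Btg2 followed in the bulb at 2.61 (57 cells), and Egr1 with Ier2 in early anagen at 1.85 (139 cells). These ratios are highest for sparse genes, for which few cells carry the value.

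On the scale of log2(UMIs + 1) at 5000 UMIs, Fos and Jun, which form the AP-1 dimer, had the highest correlation of the 45 pairs in both libraries, with Pearson's r of 0.42 over 2785 early-anagen cells and 0.51 over 3734 bulb cells. Jund went with Atf3 in early anagen (0.33) and with Jun in the bulb (0.37). Fos with Jund gave 0.14 in early anagen and 0.27 in the bulb. Nr4a1 had the weakest relation to the other 9 members, at 0.20 and 0.09, and Jun or Fos the strongest, at 0.52 (Jun) in early anagen and 0.58 (Fos) in the bulb. The median r over pairs was 0.17 and 0.15. Cells of 1 library share their preparation and sequencing, so these coefficients describe each library and carry no test. The mean of the members correlated with the log2 UMIs of the cell before thinning at -0.32 in early anagen and -0.15 in the bulb.

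**Figure D4:**
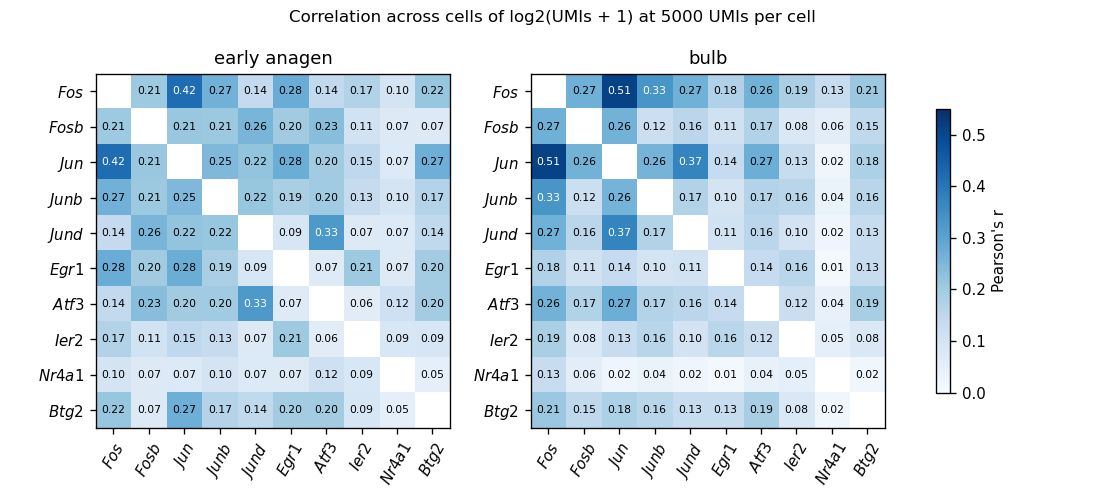
Pearson's r across cells between each pair of the 10 genes on log2(UMIs + 1), with each cell thinned to 5000 UMIs, in 2785 early-anagen cells (left) and 3734 bulb cells (right). Fos with Jun is the darkest pair in both (0.42 and 0.51), and the Nr4a1 row is the palest.

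Beyond the members, the genes most like their mean were ranked by Pearson's r across cells. In early anagen, among 7180 genes, they were Hspa1a (0.36), Klf6 (0.36), Hspa1b (0.35), Malat1 (0.33), Klf2 (0.33), Zfp36 (0.32), Socs3 (0.32), Phlda1 (0.30), Ccn1 (0.28) and Cebpd (0.28). In the bulb, among 4612 genes, they included Phlda1 (0.44), Dusp1 (0.39), Ccn1 (0.38), Klf6 (0.29), Klf4 (0.27), Btg1 (0.26), Id1 (0.26), Zfp36 (0.24) and Gadd45g (0.22). Phlda1, Ccn1, Klf6 and Zfp36 were in both lists, and the heat shock genes Hspa1a and Hspa1b only among the first 10 of early anagen. As a list, the 26 other immediate early genes correlated with the members at 0.61 and 0.62, and the 11 heat shock genes at 0.30 in early anagen and -0.08 in the bulb. The keratinocyte markers gave 0.03 and 0.02 and the mitochondrial share 0.06 and 0.03.

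Oca2, a late pigmentation gene that the study used to mark the most differentiated McSCs, divided the early-anagen cells at 10000 UMIs into 284 with at least 1 Oca2 UMI and 2501 without. Fosb and Atf3 had the lowest ratios of Oca2+ over Oca2- cells, and Egr1 was the member that was higher in this draw. Beyond counting error 6 of 10 were lower and 1 higher, where 17% and 21.1% of 7778 genes were. The members spread more between cells than the median gene, which these intervals leave out, so the comparison with all genes is not on equal terms. Past 1.5-fold, 3 were lower and 0 higher, where 6.84% and 6.65% of genes were, and the median log2 ratio was -0.22 against 0.03 over all genes.

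Fosb stood at 64.4 CPM with Oca2 and 135 CPM without, a log2 ratio of -1.06 (-1.29 to -0.85), and Atf3 at 163 and 298 CPM, a log2 ratio of -0.87 (-1.01 to -0.74). Btg2 stood at 20.4 and 33.0 CPM, a log2 ratio of -0.69 (-1.10 to -0.31), Fos at 352 and 443 CPM, a log2 ratio of -0.33 (-0.43 to -0.24), and Jund at 714 and 872 CPM, a log2 ratio of -0.29 (-0.35 to -0.22). Junb was lower by less, with a log2 ratio of -0.16 (-0.27 to -0.05). Jun, at 768 and 789.6 CPM, Ier2, at 52.5 and 56.1 CPM, and Nr4a1, at 60.6 and 60.9 CPM, had intervals that include 0. Egr1 stood at 53.2 and 41.4 CPM, a log2 ratio of 0.36 (0.11 to 0.61). The heat shock genes Hspa1a (439 and 412 CPM) and Hspa1b (323 and 300 CPM) differed less than Fosb and Atf3. Hsp90ab1 was lower with Oca2, at 2558 and 3218 CPM, a log2 ratio of -0.33 (-0.37 to -0.30). The Oca2+ cells had a median of 26433 UMIs before thinning against 24313. Fosb, Atf3 and Jund stayed lower beyond counting error in all 11 alternatives tried. The other 4 calls did not. Among the alternatives, the one that only leaves out members under 10 CPM could not change any of these calls. Egr1 had a log2 ratio of 0.12 (-0.02 to 0.26) with all UMIs and 0.25 (-0.04 to 0.53) in non-cycling cells. The interval of Btg2 included 0 in 3 alternatives, at -0.31 (-0.66 to 0.01) with another draw of the thinning, and that of Junb in 4, at -0.01 (-0.06 to 0.05) with all UMIs. At 20000 UMIs or fewer, a range chosen after seeing the data, the log2 ratio of Fos was 0.14 (-0.01 to 0.28).

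The Oca2 comparison was repeated within the cycling and the non-cycling cells, without a test between them. Among non-cycling cells Atf3 stood at 146 CPM in 219 Oca2+ cells and 345 CPM in 1558 Oca2- cells, while in cycling cells it stood at 218 CPM over 65 Oca2+ cells against 219 CPM over 943 Oca2- cells. Fosb was lower with Oca2 in both, at 70 against 153 CPM in non-cycling and 46 against 104 CPM in cycling cells. At least 5 of the 10 transcripts were held by 62.0% of Oca2+ cells (56.0% to 67.6%) and 74.7% of Oca2- cells (72.9% to 76.4%) at 10000 UMIs.

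In the bulb, 3233 cells had an Oca2 UMI at 5000 UMIs and 501 had none. The AP-1 partners Fos and Jun were higher with Oca2, in all 11 alternatives tried as well. The alternative that only leaves out members under 10 CPM could not change these calls. Fos stood at 693 CPM with Oca2 and 499 CPM without, a log2 ratio of 0.47 (0.39 to 0.56), Jun at 521 and 382 CPM, a log2 ratio of 0.45 (0.35 to 0.55), and Nr4a1 at 16.8 and 10.4 CPM, a log2 ratio of 0.70 (0.11 to 1.34). Ier2 was lower, at 56.9 and 77.8 CPM, a log2 ratio of -0.45 (-0.68 to -0.22), and Egr1 had a log2 ratio of -0.56 with an interval that includes 0 (-1.24 to 0.18). Beyond counting error 4 members were higher (the fourth was Jund, with a log2 ratio of 0.15) and 1 lower, where 8.47% and 13.4% of 6875 genes were. These intervals again leave out the larger spread of the members between cells. Past 1.5-fold, 1 of the 9 members of at least 10 CPM was higher (Nr4a1) and 0 lower, where 1.48% and 4.36% of genes were. The median log2 ratio was 0.16, against -0.03 over all genes.

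Beside Fos and Jun these bulb calls depended on the setting. The share of all genes called was not taken under these alternatives, so the counts that follow describe the members only. With all UMIs of each cell 3 members were higher and 3 lower. Nr4a1 stood at 0.24 (-0.35 to 0.89) and Jund at -0.06 (-0.19 to 0.08), both with 0 in the interval, Fosb became higher, and Junb (-0.55, -0.65 to -0.46) and Egr1 (-0.78) became lower beside Ier2. With another draw of the thinning 3 were higher and 0 lower, and Nr4a1 (0.18, -0.31 to 0.71), Jund (0.11, -0.01 to 0.23) and Ier2 (-0.22, -0.46 to 0.03) had intervals that include 0. In cells with at least 5 Dct UMIs and no Krt10 or Krt14 UMI, Ier2 stood at a log2 ratio of -0.13 (-0.41 to 0.16). The 42 low-Dct bulb barcodes, 19 of them among the kept cells, held Ier2 at 405 CPM. The Oca2- bulb cells also held more Mki67 and Top2a (8.38 and 22.0 CPM against 1.11 and 3.09 CPM).

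Cycling cells were those with at least 1 Mki67 or Top2a UMI, both made by proliferating cells. In early anagen, 1008 cells were cycling and 1777 were not, and all 10 members were lower in the cycling cells beyond counting error and 0 higher, where 27.7% and 27.3% of 7764 genes were. These intervals leave out the spread between cells, which was larger for the members than for the median gene. The count of members is therefore not on equal terms with the share of all genes. The median log2 ratio was -0.49, against -0.02 over all genes, and 1 member was past 1.5-fold lower and 0 past 1.5-fold higher, where 3.35% and 8.37% of genes were. That member was Btg2, which restrains the cell cycle, at 19.6 CPM among cycling cells against 38.6 CPM among the rest, a log2 ratio of -0.97 (-1.21 to -0.74). Jund stood at 657 and 968 CPM, a log2 ratio of -0.56 (-0.60 to -0.52), Atf3 at 219 and 321 CPM, a log2 ratio of -0.55 (-0.62 to -0.48), and Fos at 388 and 460.0 CPM, a log2 ratio of -0.24 (-0.30 to -0.19). Ier2 was nearest to equality, with a log2 ratio of -0.17 (-0.33 to -0.02). The heat shock genes Hspa1a and Hspa1b were also lower in the cycling cells, and their part was not tested. Hspa1a stood at 270 and 497 CPM, a log2 ratio of -0.88 (-0.95 to -0.82). Hspa1b stood at 210 and 355 CPM, a log2 ratio of -0.76 (-0.83 to -0.69). Hsp90ab1 went the other way, at 3220 and 3112 CPM, a log2 ratio of 0.05 (0.03 to 0.07).

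The cycling cells also had more UMIs before thinning, a median of 34218 against 20991, and the levels of the members move with UMIs. In cells of 10000 to 15000 UMIs the sum was 3640 CPM over 48 cycling cells against 4777 CPM over 407 others, and in cells of 15000 to 20000 UMIs 3390 CPM (71 cells) and 3478 CPM (405 cells). It was 2397 CPM (262 cells) and 2824 CPM (619 cells) at 20000 to 30000 UMIs, 2340 CPM (291 cells) and 2080 CPM (264 cells) at 30000 to 40000, and 2033 CPM (336 cells) and 2050 CPM (82 cells) above 40000. The cycling cells were thus lower in 4 of the 5 ranges, but in 2 of these the counting intervals overlapped. They were 3256 to 3528 and 3421 to 3536 CPM at 15000 to 20000 UMIs, and 1985 to 2082 and 1953 to 2150 CPM above 40000. At 30000 to 40000 UMIs the cycling cells were higher beyond counting error, at 2285 to 2396 against 2026 to 2136 CPM. The sum therefore had no single direction at like UMIs. Above 20000 UMIs the median log2 ratio was -0.21, and Fos was higher in the cycling cells, with a log2 ratio of 0.14 (0.06 to 0.21). At 20000 UMIs or fewer the median was -0.23 (-0.56 to 0.05 by the medians of the interval bounds), and 4 members were lower beyond counting error, while Fos, Jun, Junb, Egr1, Ier2 and Nr4a1 had intervals that include 0. Above 20000 UMIs 6 were lower and 1 higher. For neither range was the share of all genes called taken, so these counts describe the members only. Btg2, Jund and Atf3 were lower beyond counting error in all 11 alternatives tried, these ranges included. Of these alternatives, the one that only leaves out members under 10 CPM could not change a call.

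In the bulb only 58 cells were cycling at 5000 UMIs, and 3676 were not. Fos stood at 324 CPM among them against 672 CPM among the rest, a log2 ratio of -1.05 (-1.36 to -0.76), Jun at 248 and 506 CPM, a log2 ratio of -1.03 (-1.38 to -0.69), and Jund at 117 and 268 CPM, a log2 ratio of -1.19 (-1.72 to -0.71). Junb had a log2 ratio of -0.48 (-0.83 to -0.15), and Atf3, with 2 UMIs in the cycling cells, one of -1.98 (-5.03 to -0.12). The call of Atf3 was lost in 6 of 11 alternatives and that of Junb in 3. Egr1 had 0 UMIs in the cycling cells and 6.42 CPM in the others. Beyond counting error 5 of the 9 members with UMIs in both were lower and 0 higher, where 7.02% and 15% of 7550 genes were. Here too the larger spread of the members between cells is left out of the intervals. Past 1.5-fold, 7 of 9 were lower and 0 higher, where 17.5% and 24% of genes were. The median log2 ratio was -1.11 over these 9 members and 0.06 over all genes, and the cycling cells held a median of 20232 UMIs before thinning against 14221.

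**Figure D5:**
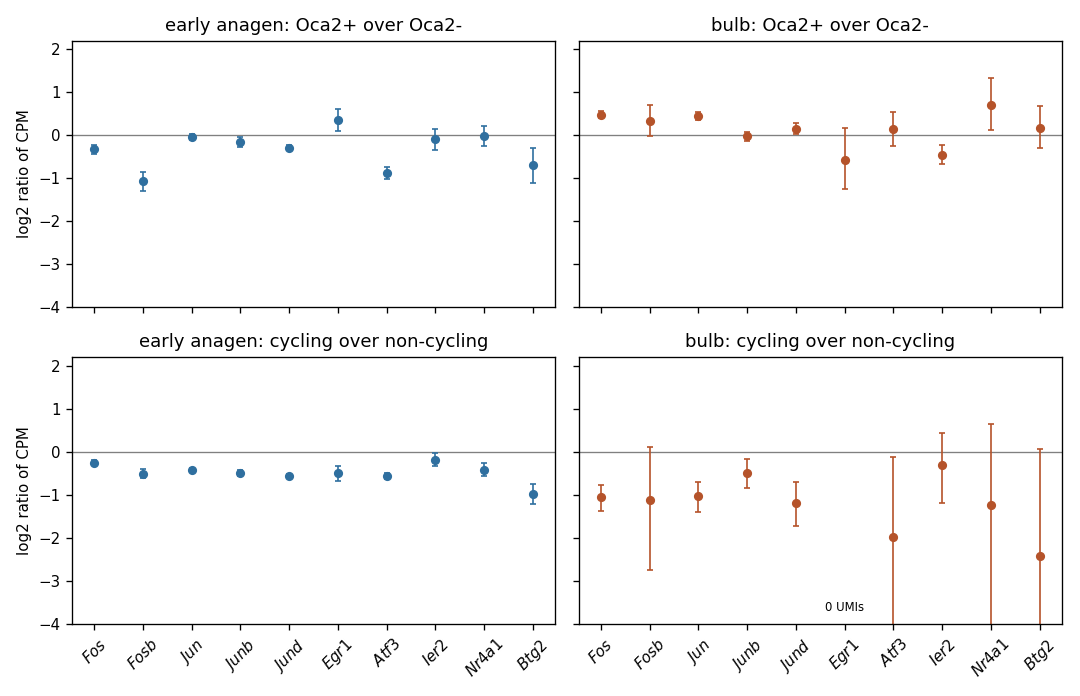
Log2 ratio of CPM of each of the 10 genes between Oca2+ and Oca2- cells (top) and between cycling and non-cycling cells (bottom), in early anagen (left, 10000 UMIs per cell) and the bulb (right, 5000 UMIs per cell), with 95% counting intervals, some of which run off the axis. All 10 points lie below 0 for cycling early-anagen cells, and the 58 cycling bulb cells have wide intervals and 0 Egr1 UMIs.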

How the data were processed

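Per the labels and the study's methods, the authors aligned the reads with Cell Ranger 6.0.1 to mm10 and deposited raw UMI counts per gene and barcode, which are whole-number counts with no normalisation. The lowest deposited total was 500 UMIs in early anagen and 504 in the bulb. Here UMIs were summed over the kept cells and given as CPM with exact Poisson intervals, ratios with an exact interval that treats both sums as Poisson, and shares with Clopper-Pearson intervals, all at 95% and for counting error only. Each cell was thinned without replacement to 5000 UMIs for detection, pairs and bulb comparisons, and to 10000 for early-anagen comparisons. Genes were compared as a background from 10 CPM in either group, and were not matched to the members for level or for spread between cells. In the Oca2 and cycling comparisons the median over all genes was taken over those of them with UMIs in both groups. 3′ tags count molecules, not bases. All 10 members were named, with up to 5 genes per other list by largest absolute log2 ratio and the 10 genes most like the members per library; values of some listed genes are not reported here. The members and lists were chosen with earlier results of these data known. Doublets were not called, and leaving out the 5% of cells with the most UMIs was an alternative. On simulated counts of 19777 genes for the comparison of libraries, 100.0% of 200 changed genes were recovered and 95.5% of intervals held the true value. These counts were drawn as Poisson, which the interval assumes, so the result checks the calculation only. The simulation held no extra spread between cells, which was above that of the median gene for every member, and none between mice. Python 3.11.15 with NumPy 2.4.6, SciPy 1.17.1 and pandas 2.3.3 was used, and edgeR 4.0.16 for TMM factors only. Gene positions and promoters come from GRCm38. Telogen McSCs were not analysed here.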

Additional observations from a re-analysis of the deposited data

Results flagged for a closer look

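The Oca2 comparison of 2 members lay in opposite directions in the 2 libraries, each beyond its own counting error, and the difference between libraries was not tested. For Fos the log2 ratio (cells with Oca2 to cells without) was -0.33 in early anagen and 0.47 in the bulb. For Jund it was -0.29 in early anagen and 0.15 in the bulb. Neither contrast held under every alternative. In early-anagen cells of 20000 UMIs or fewer Fos stood at 0.14 (-0.01 to 0.28), and in the bulb Jund stood at -0.06 with all UMIs and at 0.11 (-0.01 to 0.23) with another draw of the thinning.

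Barcodes that were left out for holding few UMIs, and that no comparison used, also carried the 10 members. With under 5% mitochondrial UMIs and at or under the UMI minimum, 4389 early-anagen barcodes (median 2338 UMIs) held 3838 CPM of the members in sum, against 2605 CPM in the kept cells, and 86 bulb barcodes (median 2967 UMIs) held 3586 CPM, against 1869 CPM.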

How the results depend on the processing

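No paired analysis was possible because each condition was 1 library, so no replicate could be left out or paired. The cause of each change below was not tested. Between libraries (bulb to early anagen) the median log2 ratio, -1.17, became -0.86 with TMM factors, -1.40 without mitochondrial and ribosomal protein genes in the total, -1.29 as a mean of per-cell CPM, and -1.76 and -1.66 in cells of 10000 to 15000 and 15000 to 20000 UMIs. Ier2 turned to -0.081 without mitochondrial and ribosomal protein genes and to -0.28 and -0.25 at those ranges, Junb to -0.056 and -0.11, and Fos to -0.030 at the first. In early anagen the cycling median of -0.49 became -0.21 above 20000 UMIs and -0.23 at 20000 or fewer, where Fos (0.14), Fosb (0.084) and Ier2 (0.047) turned above 20000. Fos in the Oca2 comparison turned to 0.14 at 20000 or fewer, and Jund in the bulb to -0.060 with all UMIs. The ratio by UMIs of the cell in early anagen, 1.25, became 1.35 in non-cycling cells and 1.09 with at least 20 Dct UMIs and no Krt10 or Krt14 UMI. The share of cells with at least 5 members became 49.8% (early anagen) and 23.6% (bulb) with at least 5 Dct UMIs and no Krt10 or Krt14 UMI, 93.4% and 56.1% with all UMIs, 86.9% and 68.3% for at least 3 members and 12.7% and 2.63% for at least 7, 41.8% in early-anagen cells above 20000 UMIs, and 20.6% in the bulb with another draw of the thinning. The other 70 summary values stayed within the counting interval of their main value. Among single members, 409 values stayed within it, 117 left it in the same direction or with a main value that included 0, and 11 turned. The values that stayed include those of the alternative that only leaves out members under 10 CPM, which could not change the value of a single member. The ranges of UMIs per cell and the cut at 20 Dct UMIs were chosen after seeing the data. Depth limits Egr1 in the bulb most, with 333 UMIs in all.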

Other observations

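Barcodes with few Dct UMIs, and barcodes outside the melanocyte selection, showed other mixtures of the same genes. The low-Dct barcodes overlap the selection, with 2 of 63 in early anagen and 19 of 42 in the bulb among the kept cells. The 63 low-Dct barcodes of early anagen, which held the keratinocyte genes Sfn (4128 CPM) and Krt17 (2582 CPM), carried Fos at 871 CPM, Egr1 at 303 CPM, Atf3 at 838 CPM and Btg2 at 364 CPM. The 42 low-Dct barcodes of the bulb, with Krt17 at 6049 CPM, carried Junb at 904 CPM, Ier2 at 405 CPM, Egr1 at 50.4 CPM and Atf3 at 19.7 CPM. In early anagen, the 677 barcodes with at least 3 Krt10 and Krt14 UMIs held 3822 CPM of the members in sum and Btg2 at 106 CPM. Barcodes over the UMI minimum with 5% mitochondrial UMIs or more held 3443 CPM in early anagen (305 barcodes) and 1775 CPM in the bulb (113 barcodes).

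At the other end of the ranking by likeness, the genes least like the members in early anagen were Prdx1 (Pearson's r of -0.30), Ppia (-0.29), H2afz (-0.29), Gapdh (-0.27) and the pigment cell gene Mlana (-0.27). In the bulb they were Alppl2 (-0.19), Rpl41 (-0.19), Rpl13 (-0.17), Rplp0 (-0.16) and Prdx1 (-0.15). The sum of the pigment genes Tyrp1, Pmel, Mlana and Tyr correlated with the members at -0.18 over early-anagen cells and at 0.05 over bulb cells, as a description with no test.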
